A study of Mus musculus with 20 samples.

Results

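The genes described here are the mitochondrial encoded and nuclear encoded subunits of the oxidative phosphorylation machinery in mouse LLC1 tumors. Members were the protein-coding genes with a symbol beginning mt-Nd, mt-Co, mt-Cytb or mt-Atp, or Nduf (a, b, c, s or v followed by a digit), Uqcr, Cox4 to Cox8 or Atp5, and with a mean of 50 or more counts over the 20 tumors. Of 94 matching genes, 80 were members, among 35226 genes in the count table. The mitochondrial genome encodes 7 of them and the nuclear genome 73. Another 7 matching genes had a lower mean count (mt-Nd4l, mt-Atp6, Cox4i2, Cox6a2, Cox6b2, Cox7a1 and Cox8b), and 7 had no row in the table (mt-Nd3, mt-Co2, mt-Co3, mt-Atp8, Cox7b2, Cox8c and a further Atp5o identifier).

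LLC1 is a Lewis lung carcinoma line, and each tumor grew subcutaneously in a male C57BL6/J mouse of 8 to 10 weeks. Each treatment group held 5 tumors. The groups were vehicle, KW6002 (istradefylline, an adenosine 2A receptor antagonist), cisplatin (a platinum drug that crosslinks DNA) and cotreatment with both. Treatment was assigned at a tumor volume of 100 mm3. All tumors came from the same line, and no engineered allele is named for them in the sources used here. The title of vehicle replicate 1 says vehicle once and those of vehicle replicates 2 to 5 say it in duplicate. The study asked whether blocking the receptor alters the antitumor action of cisplatin, and the 4 groups let each drug be compared with vehicle and the combination with each drug alone.

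Oxidative phosphorylation uses the mitochondrial respiratory chain to turn the energy of NADH and succinate into ATP. Complex I takes electrons from NADH, complex III passes them to cytochrome c, complex IV hands them to oxygen, and complex V, the ATP synthase, uses the resulting proton gradient. Complexes I, III, IV and V are mosaics of the 2 genomes: a few core subunits are made inside the mitochondrion from polycistronic transcripts of a circular genome, and the others are imported from the cytosol. Cisplatin forms adducts with both nuclear and mitochondrial DNA.

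Libraries held between 28371364 and 40965731 counts. Library codes in the labels fell into a low block of numbers (vehicle replicate 1, KW6002 replicates 1 and 2, cisplatin replicates 1 and 2, cotreatment replicates 1 to 3) and a high block (the other 12). What the blocks stand for is not given in the sources used here, and values within a block are given where they matter. Among the LLC1 markers Vim, Krt8, Krt18 and Mki67 were detected in every tumor. Cdh1 was at 1.24 to 3.87 CPM, Epcam reached at most 0.144 and Sftpc at most 0.0307. CPM are counts scaled to each library's total over the genes tested, adjusted by TMM scaling. Summed CPM of 12 skeletal muscle markers ranged from 5.54 to 305 in 19 tumors and was 1310 in cotreatment replicate 4. Summed CPM of 5 hemoglobin and erythroid genes was 25.9 to 117 in vehicle-treated and 25.6 to 50.5 in KW6002-treated tumors, and at most 0.0613 after cisplatin and 0.11 after cotreatment. Endothelial markers summed to 129 to 194 CPM with vehicle, 62.0 to 84.0 with cisplatin and 65.7 to 101 with cotreatment. Neutrophil markers summed to 44.7 to 120 CPM with vehicle, 13.8 to 67.3 with cisplatin and 13.6 to 32.4 with cotreatment. In bulk tumor RNA, fewer cells of a type and less RNA per cell cannot be told apart, and the part of these shifts in the results below was not tested.

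Most mitochondrial genes with no or almost no counts were those that have a nuclear copy. Reads of 50 bases were kept when they aligned to a single place, and a stretch of chromosome 1 (chr1:24611535-24616197, minus strand, GRCm38) carries pseudogene copies of part of the mitochondrial genome. Among annotated transcripts, every 50-base window of mt-Co2 (cytochrome c oxidase subunit 2) was also found in another gene, as were 99.9% of the windows of mt-Co3, 99.5% of mt-Atp6, 98.8% of mt-Nd4l and 98.0% of mt-Nd3. The share was 62.2% for mt-Nd4 and 51.1% for mt-Co1, 8.19% for mt-Nd2 and 7.61% for mt-Nd5, and 0 for mt-Nd1, mt-Nd6, mt-Cytb and mt-Atp8, of which mt-Atp8 nonetheless had no row. The 6 copies in that stretch that had a row held at most 8 counts in any tumor. No mitochondrial subunit of complex V was a member, and the levels of mt-Nd4 and mt-Co1 rest on the part of each gene without a copy. The windows below show both situations, 2 that occur in a nuclear pseudogene and 2 found in no other annotated transcript, each from the plus strand of the mitochondrial chromosome of GRCm38.
mt-Co2, chrM:7330-7379, identical in the pseudogenes Gm28661 and Gm13341: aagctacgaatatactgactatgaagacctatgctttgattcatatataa
mt-Nd3, chrM:9608-9657, identical in the pseudogene Gm28438: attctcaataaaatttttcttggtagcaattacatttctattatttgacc
mt-Nd1, chrM:3204-3253, unique: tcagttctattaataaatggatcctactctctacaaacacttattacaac
mt-Cytb, chrM:14692-14741, unique: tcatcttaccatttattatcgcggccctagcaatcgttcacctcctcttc

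**Figure D1:**
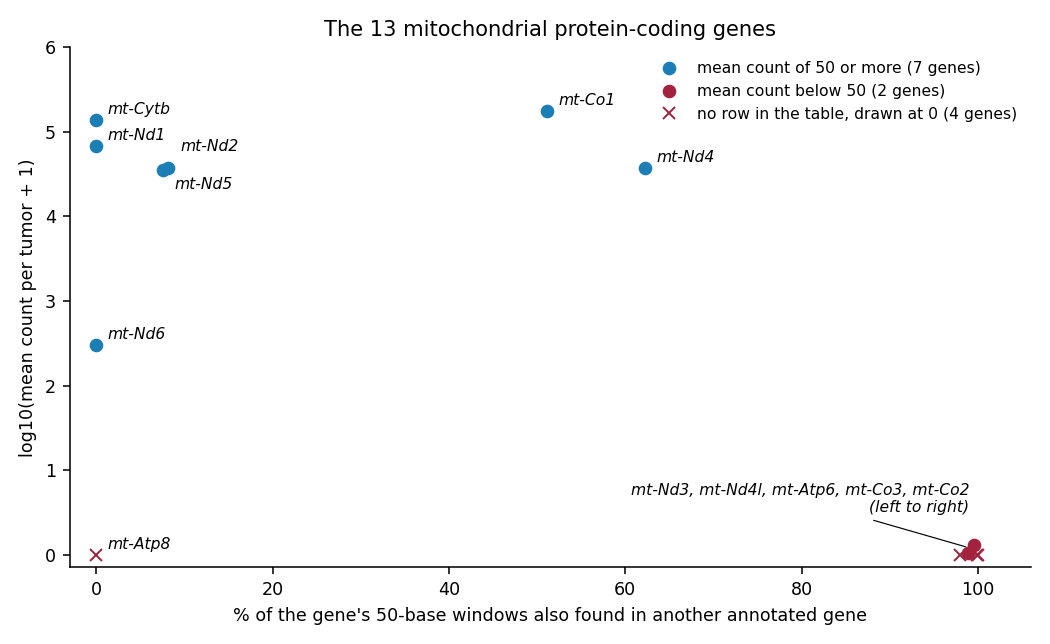
Mean count per tumor of each mitochondrial protein-coding gene, as log10 of the mean plus 1, against the percent of its 50-base windows that also occur in another annotated gene, with the 7 members in blue, genes with a mean count below 50 as red points and genes without a row as crosses drawn at 0. The 5 genes with a share of 98.0% or more had no row or almost no counts, and mt-Nd1, mt-Nd6, mt-Cytb and mt-Atp8 share none.

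The 7 mitochondrial members cover 3 complexes. mt-Nd1 (chrM:2751-3707), mt-Nd2 (chrM:3914-4951), mt-Nd4 (chrM:10167-11544) and mt-Nd5 (chrM:11742-13565) encode membrane-arm subunits of complex I on the plus strand. mt-Nd6 (chrM:13552-14070), a further complex I subunit, is the only one read from the minus strand, and its end overlaps that of mt-Nd5. mt-Cytb (chrM:14145-15288) encodes cytochrome b of complex III and mt-Co1 (chrM:5328-6872) the catalytic subunit of complex IV. The 73 nuclear members comprised 35 of complex I, 8 of complex III, 13 of complex IV and 17 of complex V. None of the 80 was lost to the low-count filter, so all entered the test.

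Mitochondrial transcripts were the more abundant class. Levels were compared between genes as CPM per 1000 unique 50-base windows of the main transcript in vehicle-treated tumors. On that scale the mitochondrial members had a median of 1880, and the nuclear members, of which 71 of 73 had enough unique windows, a median of 88.7. mt-Co1 was highest at 6920, followed by mt-Cytb at 3520, mt-Nd4 at 2030, mt-Nd1 at 1880, mt-Nd2 at 1180 and mt-Nd5 at 579. In these poly(A) libraries mt-Nd6 was an exception at 18.9, below the nuclear median. The nuclear members with the highest levels were Atp5b (770), the catalytic beta subunit of ATP synthase, Cox4i1 (467), a regulatory subunit of complex IV, Atp5a1 (418), the alpha subunit of ATP synthase, and Ndufa4 (396), now assigned to complex IV. Median levels rose from 66.7 for nuclear complex I to 104 for complex III, 107 for complex IV and 125 for complex V.

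Members differed in how steady they were within a treatment group. The within-group SD of log2 CPM had a median of 0.14 over the nuclear members and 0.211 over the mitochondrial members, against 0.177 over all genes tested and 0.109 over the 4755 genes at or above the median nuclear member's level. Ndufa4l2, a hypoxia-inducible paralog of Ndufa4, was the most variable (0.929), followed by mt-Nd6 (0.684) and Uqcrq (0.419), a small subunit of complex III. Nuclear members with a main transcript under 1000 bases (48 genes) had a median SD of 0.178 and the 25 longer ones 0.1. The shorter ones were also lower in level, with a mean log2 CPM of 5.323 against 6.431 in vehicle-treated tumors. The part of level in the spread was not tested. Across the 73 nuclear members, which share libraries and are not independent, the SD correlated with transcript length at a Spearman rho of -0.393 and with GC content at 0.475. The Pearson correlations were -0.226 and 0.429.

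Mitochondrial members took a larger mean share of the library after cisplatin and after cotreatment, and the nuclear share varied less. Mitochondrial members took 1.349% ± 0.185 of counts in vehicle-treated tumors (mean ± SD, n = 5), 1.401% ± 0.113 with KW6002, 1.612% ± 0.200 with cisplatin and 1.682% ± 0.151 with cotreatment. Nuclear members took 0.7517% ± 0.0265, 0.7349% ± 0.0474, 0.7798% ± 0.0692 and 0.7118% ± 0.0480 in the same order. For the mitochondrial class the vehicle tumors ranged from 1.115% to 1.573%, the cisplatin tumors from 1.314% to 1.86% and the cotreatment tumors from 1.494% to 1.906%, so both treated groups overlapped vehicle in part. Cisplatin replicate 5, at 1.314%, lay below the vehicle mean. Cisplatin replicate 4 stood highest for the nuclear class at 0.891%.

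**Figure D2:**
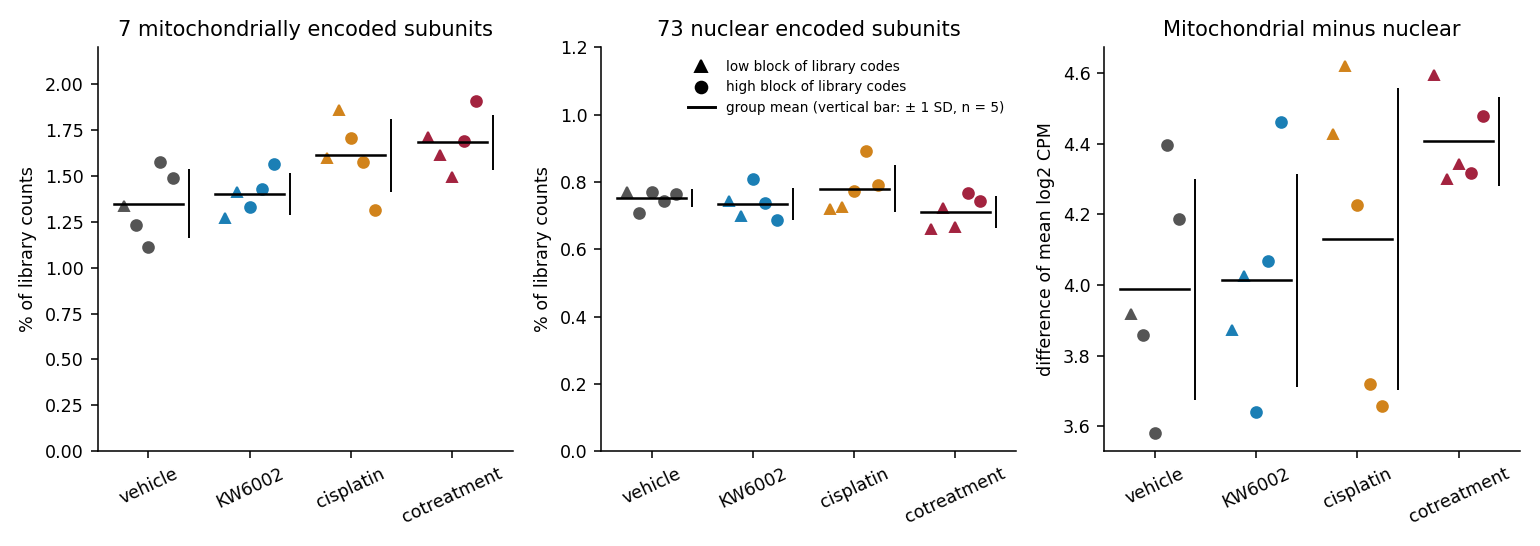
Percent of each tumor's counts in the 7 mitochondrial and in the 73 nuclear members, and the difference of their mean log2 CPM (the balance given in the next paragraph), by group, with triangles for the low and circles for the high block of library codes, a line at the group mean and a bar of 1 SD to each side. Mitochondrial shares averaged 1.349% with vehicle and 1.682% with cotreatment, and nuclear shares 0.7517% and 0.7118%.

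A balance between the classes was computed per tumor as the mean log2 CPM of the mitochondrial members minus that of the nuclear members. In vehicle-treated tumors it was 3.918, 3.858, 3.582, 4.395 and 4.187 in replicates 1 to 5. With KW6002 it was 3.873, 4.025, 3.64, 4.068 and 4.461, and with cisplatin 4.427, 4.62, 4.225, 3.721 and 3.657. With cotreatment it was 4.594, 4.301, 4.341, 4.316 and 4.477. The cotreatment tumors thus lay close together at the upper end, while the cisplatin tumors spread from 3.657 to 4.62. Group means were 3.988 ± 0.313, 4.013 ± 0.301, 4.13 ± 0.427 and 4.406 ± 0.126 (SD, n = 5), with a within-group SD of 0.311 over the 4 groups.
Relative to vehicle, the mean balance was higher by 0.0252 with KW6002, 0.1418 with cisplatin and 0.4175 with cotreatment, and the last of these exceeded the within-group SD. With 1 tumor left out these ranged from -0.0867 (without KW6002 replicate 5) to 0.127 (without vehicle replicate 4), from 0.0193 (without cisplatin replicate 2) to 0.26 (without cisplatin replicate 5) and from 0.316 to 0.5193. The KW6002 difference was also below 0 without vehicle replicate 2 or 3, and that of cisplatin was 0.0403 without vehicle replicate 3 and 0.0675 without cisplatin replicate 1. The cisplatin difference in balance turned within the high block, where 3 cisplatin tumors averaged 3.868 and 4 vehicle tumors 4.006. In the low block 2 cisplatin tumors averaged 4.524 against 3.918 in the single vehicle tumor. The ratio of mitochondrial to nuclear counts did not turn in the high block, averaging 1.88 with cisplatin and 1.813 with vehicle. Mitochondrial shares there averaged 1.533% and 1.353%. The balance gives each mitochondrial member equal weight, including mt-Nd6, the most variable of them (within-group SD of 0.684). The part of mt-Nd6 in the turn was not tested. The cotreatment difference in balance was 0.3906 within the high block. Between cotreatment and cisplatin the mean difference was 0.2757, being 0.5288 in the high and -0.1116 in the low block. The mitochondrial minus nuclear level, cotreatment vs cisplatin, was 0.1576 without cisplatin replicate 5 and 0.1734 without cisplatin replicate 4. These balances are a description of members chosen with results known, and no test was run on them.

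No change in these genes was detected after KW6002 alone. A gene was called when edgeR's quasi-likelihood test gave a Benjamini-Hochberg adjusted p below 0.05 over 16665 genes and the log2 fold change was at least 0.32 in size. Compared with vehicle-treated tumors, KW6002 gave 0 called members of 80, with 0.00% of all genes called. None of the 80 members reached an unadjusted p below 0.05 (339 of all genes did), and DESeq2 and limma voom also called none, of members or of all genes. The median log2 fold change was 0.03 over the mitochondrial members, ranging from -0.04 (without vehicle replicate 3) to 0.12 (without vehicle replicate 4), and -0.04 over the nuclear members, ranging from -0.0755 (without KW6002 replicate 3) to -0.0083 (without KW6002 replicate 5). The 95% interval for mt-Nd1 ran from -0.27 to 0.28 on the log2 scale.

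Cisplatin raised mt-Nd1, and no nuclear member passed both thresholds. The level of mt-Nd1 was 1707, 1431, 1293, 2275 and 1846 in the vehicle tumors and 2092, 2782, 2422, 2337 and 1792 CPM in the cisplatin tumors. Cisplatin replicates 1 and 5 lay inside the vehicle range, and vehicle replicates 4 and 5 inside the cisplatin range. The log2 fold change was 0.42 ± 0.14 (SE, edgeR adjusted p = 0.0443), or 1.34-fold. Thus 1 of 80 members was called (1.25%), against 10.6% of all genes. The call did not survive in 9 of 20 fits that each left out 1 tumor: vehicle replicate 1, 2, 3 or 5, KW6002 replicate 1, cisplatin replicate 2, 3 or 4, or cotreatment replicate 1, with adjusted p up to 0.106. Within the high block the log2 fold change of mt-Nd1 was 0.37 (adjusted p = 0.191). The log2 fold change of mt-Nd1, cisplatin vs vehicle, was also not called with the code block as a term (adjusted p = 0.0557), with no filter on low counts (0.121), with only the 2 groups in the fit (0.0987) and in a test against the fold limit (0.721).

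The other 6 mitochondrial members had positive estimates after cisplatin without passing. mt-Nd5, at 872.3, 824.4, 755.1, 1110 and 1186 CPM with vehicle and 1140, 1284, 1253, 1106 and 965.8 with cisplatin, had a log2 fold change of 0.28 ± 0.13 (adjusted p = 0.138). mt-Cytb was at 0.26 (adjusted p = 0.0688), mt-Nd4 at 0.24 (adjusted p = 0.108), mt-Co1 at 0.15 (adjusted p = 0.273) and mt-Nd2 at 0.11 (adjusted p = 0.581). For mt-Nd6, at 8.704, 4.711, 5.093, 13.54 and 12.29 CPM with vehicle and 15.49, 14.32, 8.107, 5.244 and 4.02 with cisplatin, the SE of 0.41 was larger than the estimate of 0.09. The median over the 7 genes was 0.24, against 0.00 over all genes tested.

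**Figure D3:**
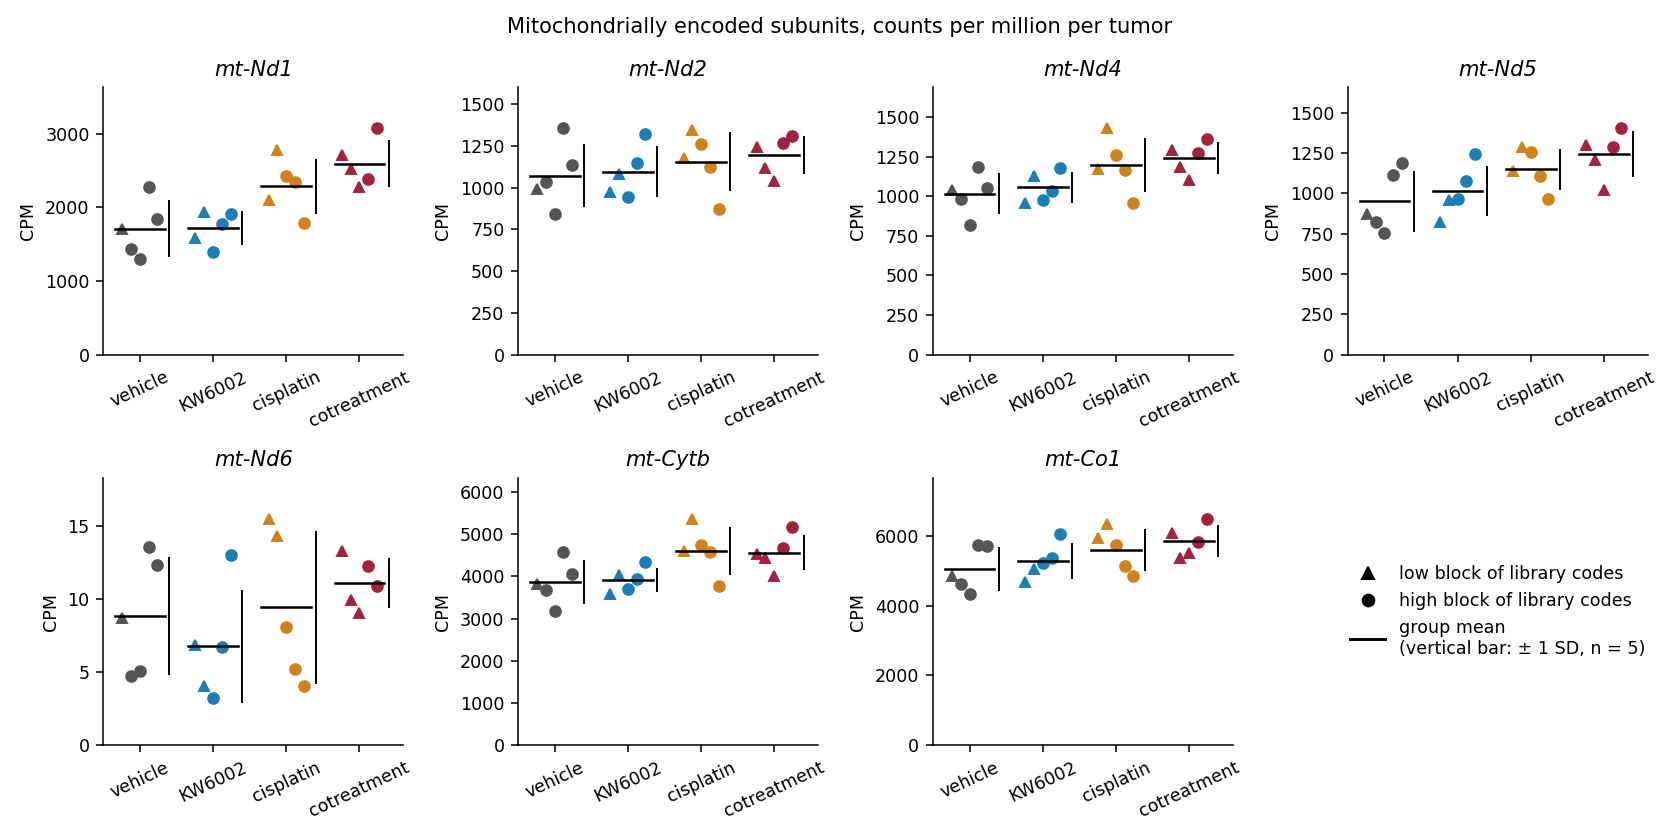
CPM of the mitochondrial members in each tumor by group, with triangles for the low and circles for the high block of library codes, a line at the group mean and a bar of 1 SD to each side. Mean mt-Nd1 was 1710 CPM with vehicle, 1718 with KW6002, 2285 with cisplatin and 2592 with cotreatment.

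Among the nuclear members, small decreases of 2 long transcripts passed the adjusted p alone after cisplatin. Uqcrfs1 (chr13:30540308-30545362, minus strand, GRCm38) encodes the Rieske iron-sulfur protein of complex III. It was at 88.35, 86.35, 87.76, 100.7 and 90.52 CPM with vehicle and at 80.36, 81.0, 76.23, 76.21 and 78.02 with cisplatin, with no overlap between the groups. It fell by 0.21 ± 0.05 on the log2 scale (SE, edgeR adjusted p = 0.00683). Ndufs1 (chr1:63143596-63176833, minus strand), the largest core subunit of complex I, was at 192.1 ± 13.5 CPM with vehicle and 166.5 ± 11.5 with cisplatin (SD, n = 5), and it fell by 0.21 (adjusted p = 0.0144), below the fold limit. With mt-Nd1, 3.75% of members passed the adjusted p at any fold, against 16.5% of all genes. No overlap between cisplatin and vehicle tumors was seen for 1 of 80 members, Uqcrfs1, and for 10.4% of all genes.
Over all 73 nuclear members the estimates leaned upward: 50 were above 0, with a median log2 fold change of 0.07, but without cisplatin replicate 4 the median was 0.02 and 30 of 73 were below 0. Within the high block 13 nuclear members were called higher after cisplatin, where the fit to all tumors called none (7 had an unadjusted p below 0.05). They were 17.8% of the nuclear members, none of which was called lower. In the same fit 15.9% of all genes were called in either direction and 9.0% were called higher. All 13 had a main transcript under 1000 bases, as had 48 of the 73 nuclear members. The 13 were chosen by this result. They included Ndufa4l2 (log2 fold change of 1.39), Uqcr10 (0.68), Ndufa2 (0.63), Ndufc2 (0.62), Cox8a (0.55), Ndufb10 (0.48), Ndufa6 (0.46), Cox6a1 (0.45) and Cox5b (0.44). Uqcr10, a small subunit of complex III, was at 55.84 and 50.3 CPM in the cisplatin tumors of the low block and at 75.84, 112.3 and 84.33 in those of the high block. Its vehicle tumors ranged from 44.09 to 70.26. Cisplatin replicate 4, the highest of these, and replicate 5 also had the highest summed LLC1 markers, at 5609 and 5425 CPM, and replicate 5 the highest summed hypoxia markers, at 3255 CPM. Vim made up most of the LLC1 sum, at 2830 to 4660 CPM over the 20 tumors. Macrophage markers summed to 2002, 2314 and 1827 CPM in the cisplatin tumors of the high block, to 1284 and 1447 in those of the low block and to at most 1646 with vehicle. Fibroblast markers were highest in cisplatin replicate 4, at 14230 CPM, against at most 12800 with vehicle. The part of these in the result was not tested.

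Cotreatment raised the mitochondrial complex I genes mt-Nd1 and mt-Nd5 and lowered the nuclear complex I gene Ndufb2. mt-Nd1 was at 2710, 2523, 2273, 2379 and 3075 CPM in the cotreatment tumors. Of these, only replicate 3 at 2273 lay below the highest vehicle tumor, at 2275. The log2 fold change against vehicle was 0.60 ± 0.14 (SE, edgeR adjusted p = 0.00219), or 1.52-fold, and it remained called without any single tumor. mt-Nd5 was at 1297, 1206, 1020, 1286 and 1404 CPM, and its log2 fold change was 0.39 ± 0.13 (adjusted p = 0.0199), or 1.31-fold. Replicate 3 lay inside the vehicle range for both genes. Within the high block, with 2 cotreatment and 4 vehicle tumors, the log2 fold changes were 0.70 for mt-Nd1 (adjusted p = 0.0546) and 0.50 for mt-Nd5 (adjusted p = 0.0714).
The remaining mitochondrial members all had positive estimates. mt-Nd4 rose by 0.29 ± 0.10 (adjusted p = 0.0269), short of the fold limit. mt-Cytb was at 0.24 (adjusted p = 0.0516), mt-Co1 at 0.21 (adjusted p = 0.0757), mt-Nd2 at 0.16 (adjusted p = 0.345) and mt-Nd6 at 0.32 with an SE of 0.41 (adjusted p = 0.582). The median over the 7 genes was 0.29 (0.19 without vehicle replicate 3), against -0.02 over all genes tested. Scaling by other methods, or without the mitochondrial genes, left all 7 estimates above 0.

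Ndufb2 (chr6:39592574-39603382, plus strand, GRCm38) encodes an accessory subunit of the complex I membrane arm. It was at 24.11, 24.36, 22.76, 26.01 and 22.76 CPM with vehicle and at 17.35, 17.44, 18.04, 20.39 and 21.49 with cotreatment, so the groups did not overlap. KW6002 tumors ranged from 20.33 to 25.1 and cisplatin tumors from 20.7 to 24.69. The log2 fold change between cotreatment and vehicle was -0.34 ± 0.08 (SE, edgeR adjusted p = 0.00178). It fell short of the fold limit without vehicle replicate 4 or cotreatment replicate 1, 2 or 3, the adjusted p staying at or below 0.00964. Both cotreatment tumors of the high block were the highest of the 5, and within the high block the log2 fold change was -0.17 (adjusted p = 0.274). With the code block as a term it was -0.31 (adjusted p = 0.00434), short of the fold limit.

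In all, 3 of 80 members were called after cotreatment (3.75%), against 23.5% of all genes. Limma voom called 2 mitochondrial and 3 nuclear members, and 25.8% of all genes. At any fold 12 of 80 members passed the adjusted p, against 35.4% of all genes. Of 73 nuclear members, 8 were lower at any fold and 1 was higher. Uqcrfs1, at 71.81, 75.44, 75.03, 81.74 and 76.99 CPM, fell by 0.25 (adjusted p = 0.000573) and Ndufs1, at 160.4 ± 6.93 CPM, fell by 0.26 (adjusted p = 0.00104). Of 17 nuclear members of complex V, 3 passed at any fold (17.6%), all lower. Atp5a1 (alpha) fell by 0.20 (adjusted p = 0.007), Atp5c1 (gamma, the rotating stalk) by 0.21 (adjusted p = 0.0162) and Atp5b (beta) by 0.15 (adjusted p = 0.0142). Atp5b was at 1446, 1330, 1399, 1526 and 1429 CPM with vehicle and at 1245, 1278, 1264, 1334 and 1308 with cotreatment, the groups overlapping by a single tumor on each side. Uqcrb, a subunit of complex III, and Cox7a2, a small subunit of complex IV, each fell by 0.23 (adjusted p = 0.0176 and 0.0163). With other tools, scalings, filters or blocks, estimates ran from -0.23 to -0.04 for Atp5c1 and from -0.25 to -0.06 for Uqcrb. Those of Cox7a2 ran from -0.24 to -0.08, those of Atp5a1 from -0.20 to -0.12 and those of Atp5b from -0.15 to -0.08. Ndufv2, an iron-sulfur subunit of the NADH module of complex I, rose by 0.19 (adjusted p = 0.0224), from 81.13 ± 5.17 to 92.71 ± 6.44 CPM. Uqcrb, Atp5a1 and Ndufv2 were named after their values were seen, as were the genes given above as extremes of level or spread.
By complex, the median log2 fold change of the nuclear members after cotreatment was -0.06 for complex I, -0.12 for complex III, -0.03 for complex IV and -0.15 for complex V, and 52 of 73 nuclear estimates were below 0 (44 to 58 with 1 tumor left out). This direction did not hold within the high block, where the nuclear median was 0.06 and 24 of 73 estimates were below 0, while the mitochondrial median there was 0.40 and all 7 were above 0. Groups did not overlap for 5 of 80 members, all nuclear, against 24.7% of all genes.

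**Figure D4:**
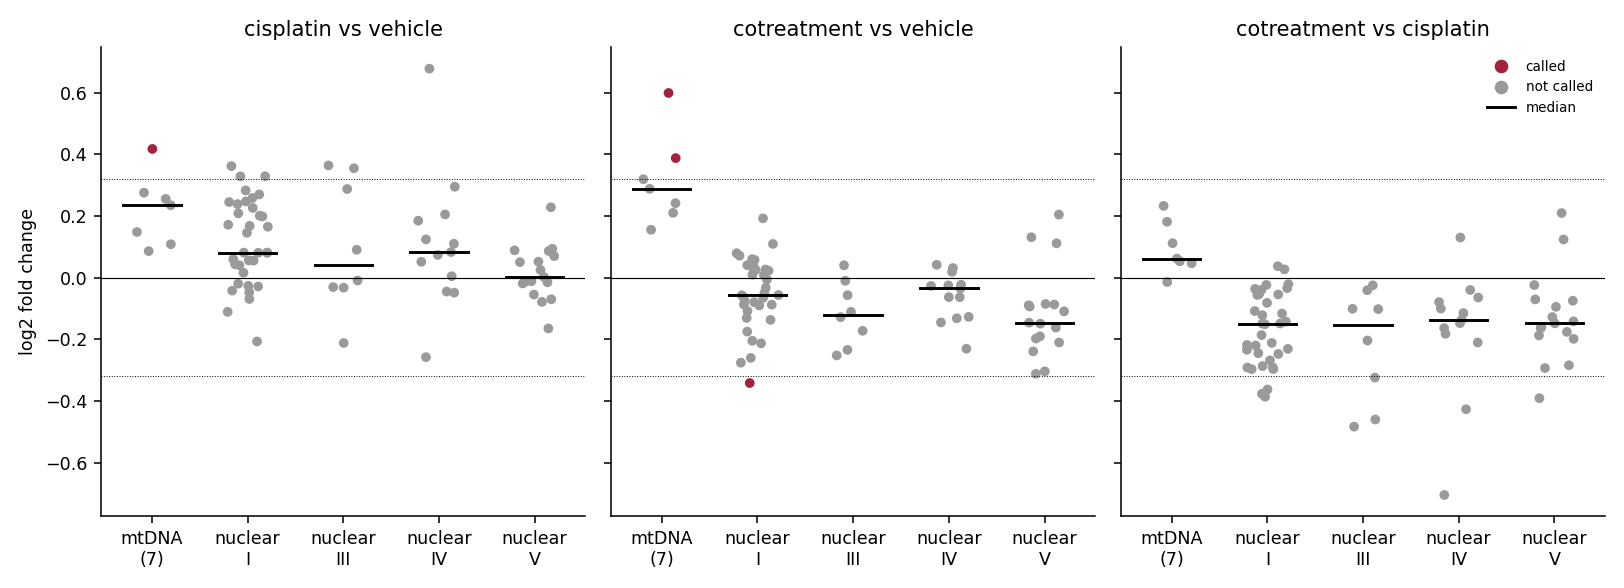
Log2 fold change of each member against vehicle after cisplatin and after cotreatment, and of cotreatment against cisplatin, with members grouped as mitochondrial encoded and as nuclear subunits of complexes I, III, IV and V. Each point is 1 member, red where called and grey where not, black lines are medians and dotted lines mark 0.32 to each side of 0; the 7 mitochondrial genes lie above 0 in both comparisons with vehicle, and 68 of 73 nuclear members lie below 0 in the comparison with cisplatin.

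Most nuclear members had slightly lower estimates when KW6002 was added to cisplatin, without any called by edgeR. Compared with cisplatin alone, cotreatment gave 0 called members of 80 by edgeR, against 4.0% of all genes. At an unadjusted p below 0.05 there were 21 nuclear members and no mitochondrial member (3883 of all genes), and DESeq2 called 1 nuclear member and limma voom 2, where they called 5.42% and 6.11% of all genes. Ndufc1, the gene called by both and named after its values were seen, was at 15.09, 13.03, 16.73, 21.28 and 17.8 CPM with cisplatin and at 12.38, 14.05, 10.44, 14.53 and 13.2 with cotreatment (log2 fold change of -0.38, edgeR adjusted p = 0.0534). The groups overlapped, and cisplatin replicate 4 was again the highest. Estimates lay below 0 for 68 of 73 nuclear members, with a median of -0.15 (-0.09, with 62 of 73 below 0, without cisplatin replicate 4), and above 0 for 6 of 7 mitochondrial members, with a median of 0.06 that ranged from 0.02 (without cisplatin replicate 5) to 0.13 (without cisplatin replicate 2). The median of all genes was -0.01. Within the high block the medians were -0.12 and 0.25, and within the low block -0.06 and -0.12. mt-Nd1 had a log2 fold change of 0.18 (95% interval -0.09 to 0.45), which ran from 0.11 to 0.26 with 1 tumor left out. No overlap was seen for 1 member, of complex V, and for 4.83% of all genes. The comparison shares its cisplatin tumors with that of cisplatin against vehicle, where nuclear estimates leaned upward.

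Compared with KW6002-treated tumors, cotreatment raised mt-Nd1 by 0.59 ± 0.14 on the log2 scale (SE, edgeR adjusted p = 0.00246), from 1577, 1934, 1396, 1777 and 1906 CPM. Every cotreatment tumor exceeded every KW6002 tumor. It was the only call among 80 members (1.25%), where 23.3% of all genes were called. Limma voom called 2 mitochondrial members and 26.9% of all genes, and within the low block edgeR called 3 mitochondrial members, 1 nuclear member and 19.4% of all genes. At any fold 11.2% of members passed, 1 mitochondrial and 8 nuclear, against 35.0% of all genes. The median was 0.23 over the mitochondrial members and -0.03 over the nuclear members, turning to 0.01 without KW6002 replicate 3 or cotreatment replicate 3 and to 0.06 within the high block (24 of 73 below 0), and all 7 mitochondrial estimates were above 0. Within the high block mt-Nd1 was at 0.70 (adjusted p = 0.0796) and within the low block at 0.52 (adjusted p = 0.0286). Cotreatment tumors are common to the 3 comparisons that involve them.

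The interaction asked whether KW6002 changed a gene differently with and without cisplatin. No member was called by edgeR, DESeq2 or limma voom, where they called 0.0660%, 1.97% and 1.75% of all genes. Without cotreatment replicate 4, edgeR called 1.36% of all genes. At an unadjusted p below 0.05 there were 2 nuclear members of complex I and 2034 of all genes. For mt-Nd1 the interaction was 0.18 on the log2 scale (95% interval -0.21 to 0.56), a range that includes differences as large as the cisplatin change itself. With 1 tumor left out the estimate for mt-Nd1 ran from 0.05 to 0.26. Nuclear estimates were below 0 for 62 of 73 members, with a median of -0.11, and without cisplatin replicate 4 for 47 of 73, with a median of -0.05.

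Ndufa4l2, the paralog induced by low oxygen, passed the test in no comparison over all tumors. It was at 4.456, 2.145, 3.395, 3.606 and 3.62 CPM with vehicle. With cisplatin it was at 1.184, 1.473, 2.874, 10.76 and 11.28, and with cotreatment at 1.468, 2.921, 1.705, 3.22 and 7.643. The cisplatin tumors thus fell on both sides of the vehicle range, with replicates 4 and 5 above it, and the log2 fold change of 0.68 had an SE of 0.56 (edgeR adjusted p = 0.437). With 1 tumor left out this fold change ran from 0.24 to 0.95. Within the high block it was 1.39 (adjusted p = 0.0439). Summed hypoxia markers were 829 to 3250 CPM over the cisplatin tumors and 1390 to 1670 over the vehicle tumors. Of the cisplatin tumors high for Ndufa4l2, replicate 5 was above the vehicle range of these markers, at 3255 CPM. Replicate 4, at 1582 CPM, was inside it. The muscle isoforms Cox6a2 and Cox8b had too few counts to be members and are taken up with the results for a closer look.

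**Figure D5:**
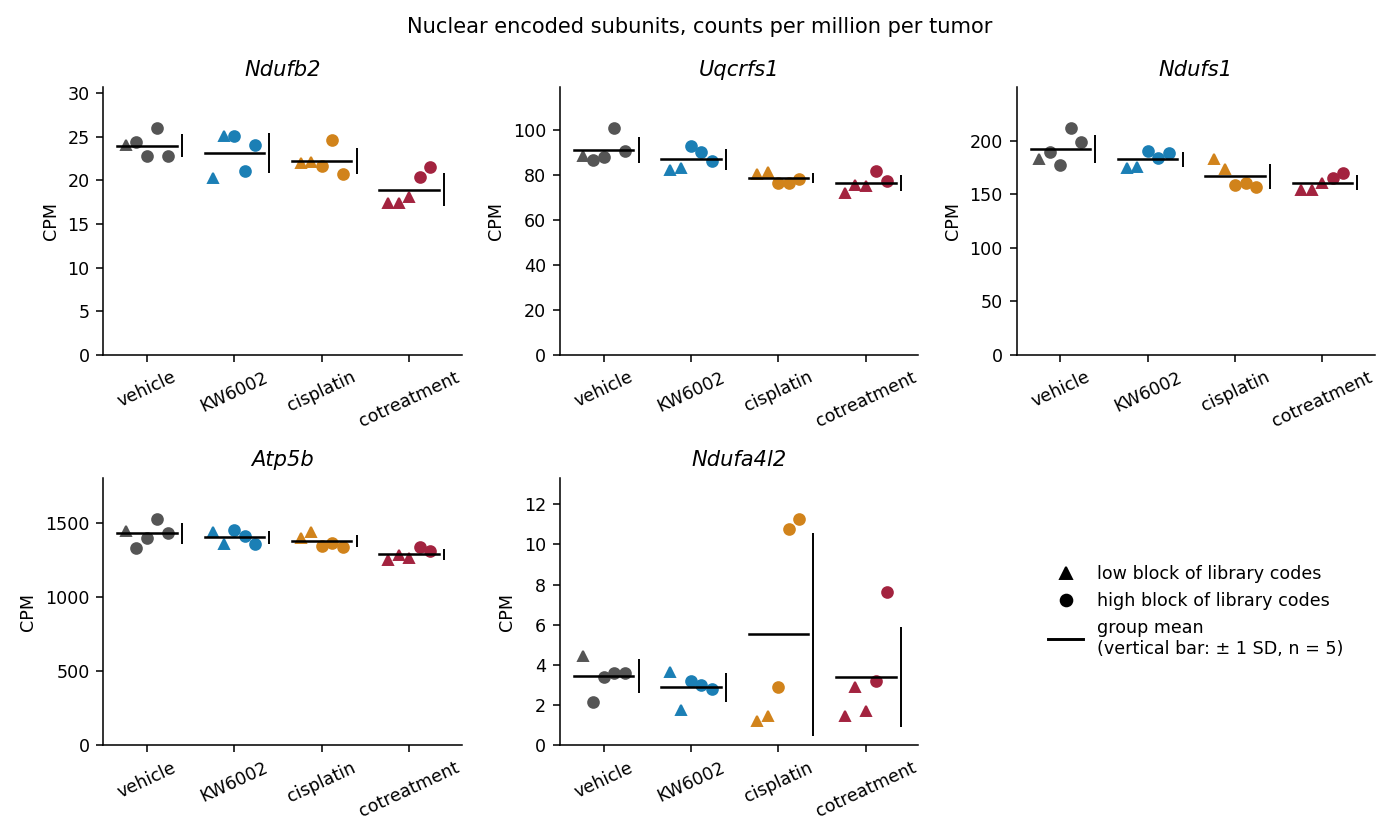
CPM of Ndufb2, Uqcrfs1, Ndufs1, Atp5b and Ndufa4l2 in each tumor by group, with triangles for the low and circles for the high block of library codes, a line at the group mean and a bar of 1 SD to each side. Uqcrfs1 averaged 90.74 CPM with vehicle, 78.36 with cisplatin and 76.2 with cotreatment, whereas the cisplatin tumors of Ndufa4l2 ranged from 1.184 to 11.28.

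Genes that supply or build the complexes were read from the same fits. After KW6002 none of them was called in any list. After cisplatin 2 of 184 genes tested in these lists were called (1.09%, against 10.6% of all genes), Sdhaf1, an assembly factor of complex II, which rose by 0.34 (adjusted p = 0.0403), and Primpol, a primase-polymerase of the nucleus and mitochondrion, which fell by 0.39 (adjusted p = 0.00727). At any fold 20 of the 184 passed the adjusted p, against 16.5% of all genes.
After cotreatment 21 of the 184 were called (11.4%, against 23.5% of all genes), 17 of them lower. At any fold 67 of the 184 passed the adjusted p, against 35.4% of all genes. Of 7 genes of complex II and the cytochrome c carriers, 1 was called, the somatic cytochrome c gene Cycs. It fell by 0.47 ± 0.17 (adjusted p = 0.0397), from 3.88 to 2.80 CPM. Shared windows were searched only for genes matching the member rule, so the part of Cycs open to unique reads is not known here. Short of the fold limit, Cyc1, cytochrome c1 of complex III, fell by 0.29 (adjusted p = 0.000715). Sdhc fell by 0.21 (adjusted p = 0.0021) and Sdha by 0.16 (adjusted p = 0.0305), also short of it. Of 43 assembly factors, 6 were called lower and 2 higher. Ndufaf5 and Timmdc1, which help assemble complex I, fell by 0.53 (adjusted p = 0.000208) and 0.47 (adjusted p = 0.000504). Coa3 and Cox17, a chaperone and a copper carrier for complex IV, fell by 0.46 (adjusted p = 0.000385) and 0.40 (adjusted p = 0.000399). Lyrm7 and Coa7 fell by 0.41 and 0.33, and Cox19 and Sdhaf1 rose by 0.36 and 0.48. Compared with cisplatin alone, 4 of the 184 were called, all lower (2.17%, against 4.0% of all genes). They were Coa3, which fell by 0.38 (adjusted p = 0.0132), and the mitochondrial ribosome genes Mrps25, Mrpl12 and Mrps6, which fell by 0.40, 0.38 and 0.34. At any fold 17 of the 184 passed the adjusted p in that comparison, against 6.52% of all genes.

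Of 16 genes in the list for copying and transcribing mitochondrial DNA, 3 were called lower after cotreatment and none higher (18.8%, against 23.5% of all genes). Primpol fell by 0.58 ± 0.09 (adjusted p = 8.2e-05), Tfb1m, an rRNA dimethyltransferase of the mitochondrion, by 0.57 ± 0.12 (adjusted p = 0.000671), and the exonuclease Mgme1 by 0.35 ± 0.06 (adjusted p = 0.000279). Tfam, which packages mitochondrial DNA and starts its transcription, was at 61.8 CPM with vehicle and 56.7 with cotreatment (log2 fold change of -0.12, adjusted p = 0.0402), and Polrmt, the mitochondrial RNA polymerase, at 27.3 and 28.1 (0.04, adjusted p = 0.838). Of 20 genes for mitochondrial RNA processing, Trmt10c, a subunit of mitochondrial RNase P, fell by 0.33 (adjusted p = 0.00111), and Lrpprc, which stabilizes mitochondrial mRNAs, fell by 0.29 (adjusted p = 0.000676), under the fold limit.
Of 10 listed regulators of oxidative phosphorylation genes, Tfam among them, 3 were called lower and 1 higher. Ppargc1b, a coactivator, fell by 0.82 ± 0.19 (adjusted p = 0.00195), Myc by 0.49 ± 0.14 (adjusted p = 0.0117) and Pprc1 by 0.35 ± 0.06 (adjusted p = 0.000237). Ppargc1a rose by 1.62 ± 0.42 (adjusted p = 0.00485) at the low levels of 0.165 CPM with vehicle and 0.508 with cotreatment. Of 13 genes of the citric acid cycle, Idh3a, a subunit of the NAD-dependent isocitrate dehydrogenase, fell by 0.38 ± 0.05 (adjusted p = 3.06e-06). Of 77 mitochondrial ribosome genes tested, 2 were called lower and 1 higher. Of these lists, only the regulators had a larger called share than all genes (4 of 10), and no list was tested as a set.

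Promoters were read from RefSeq windows of 300 bases on GRCm38.p6, from 250 bases before to 50 after each start, which matched 59 of 73 nuclear members with 64 windows. The letters GCGCANGCG of nuclear respiratory factor 1 were found on either strand in 29.7% of them, against 6.25% of 32851 windows of all genes. The ETS core CCGGAAG was in 21.9% against 8.86%, and the YY1 core AAGATGG in 15.6% against 6.34%. The GC box GGGCGG was in 35.9% and 35.7%. Any of the former 3 was in 56.2% of member windows and 19.2% of all windows. Ndufb2, the nuclear member called after cotreatment, and Atp5c1, lowered at any fold, illustrate a window without and with a match to the NRF1, ETS or YY1 letters, the match in capitals. Atp5c1 has a further, overlapping window (chr2:10080461-10080760), which held none. A match is a description of letters only, and its absence says nothing about a factor.
Ndufb2, chr6:39592315-39592614, plus strand, no NRF1, ETS or YY1 match: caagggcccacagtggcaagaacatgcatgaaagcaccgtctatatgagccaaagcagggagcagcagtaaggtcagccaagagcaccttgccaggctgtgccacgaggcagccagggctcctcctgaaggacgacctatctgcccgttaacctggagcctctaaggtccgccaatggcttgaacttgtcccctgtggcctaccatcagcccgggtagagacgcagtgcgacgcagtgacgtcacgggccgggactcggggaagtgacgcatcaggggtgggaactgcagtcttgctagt
Atp5c1, chr2:10080383-10080682, minus strand, 1 NRF1 match: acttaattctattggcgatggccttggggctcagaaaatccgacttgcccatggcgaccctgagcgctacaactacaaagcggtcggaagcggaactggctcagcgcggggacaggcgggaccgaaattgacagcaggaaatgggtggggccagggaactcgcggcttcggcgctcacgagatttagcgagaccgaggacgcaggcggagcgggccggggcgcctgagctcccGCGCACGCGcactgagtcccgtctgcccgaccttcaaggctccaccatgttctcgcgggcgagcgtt
The windows of Uqcrfs1, Cox7a2, Atp5b and Ndufv2 held no match to the NRF1, ETS or YY1 letters either.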

How the data were processed

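RNA was extracted from 20 subcutaneous LLC1 tumors, and stranded poly(A) libraries were read as single ends of 50 bases. The authors aligned reads to mm10 (GRCm38) with STAR, kept unique alignments and counted genes with HTSeq 0.6.1p1 in union mode. The strand option is not given in the sources used here. The deposited values were raw read counts per gene, with no normalization, for all 20 tumors, and no column was left unused. Depth was 28371364 to 40965731 counts per tumor.

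Groups followed the sample titles. Counts were fitted with edgeR 4.0.16 (R 4.3.3; quasi-likelihood, robust, TMM scaling, filterByExpr, 4 group means, 16665 genes), two-sided, with Benjamini-Hochberg adjustment over all genes. Calls needed an adjusted p under 0.05 and a log2 fold change of 0.32. Intervals of 95% are 1.96 SE to each side. Log2 CPM used a prior count of 2. The fit was tested on simulated counts. Alternatives used DESeq2 1.42.0, limma 3.58.1 voom, other scalings, filters and subsets of tumors, and Python 3.11.15 with pandas 2.3.3 summarised them. Nothing in the labels pairs tumors. The p-values set a group difference against the spread between these tumors within groups.

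Members and gene lists were chosen with earlier results of these data known. Genes named were all mitochondrial members, fixed core and isoform members of each complex, and in each comparison up to 3 raised and 3 lowered called nuclear members. Shared 50-base windows were found by comparing annotated transcripts, so intergenic copies were not searched. Coordinates are those of the GRCm38 annotation and promoters those of RefSeq on GRCm38.p6.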

Additional observations from a re-analysis of the deposited data

Results flagged for a closer look

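Of 104 sets of 5 tumors examined for a tumor standing apart by Dixon's criterion (0.71 for 5 values), 5 were found, and chance gives about 1 in 20. Cisplatin replicate 4 stood high for Cox7a2, a small subunit of complex IV, at 138.6 CPM, where the other cisplatin tumors were at 107.5 to 115.3. Cotreatment replicate 5 stood high for Ndufa4l2 at 7.643 CPM, with the others at 1.468 to 3.22. The muscle isoforms Cox6a2 and Cox8b, each with a mean count under 50, stood high in cotreatment replicate 4 at 2.45 and 1.872 CPM, where the other cotreatment tumors reached at most 0.2496 and 0.1705. That tumor also had the highest summed skeletal muscle markers, at 1311 CPM, and the part of this in the result was not tested. Vehicle replicate 2 was high for Cox8b at 0.4219 CPM, against at most 0.09794 in the other vehicle tumors.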

How the results depend on the processing

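Main counts and balances stayed within 1.5 times, or within 1 SD, in 478 recomputed values, and 46 moved further. Among fold changes of single named genes, 4709 kept their side of the thresholds, 27 lost and 40 gained it, and none that was called turned sign. For what moved, the cause was not tested. For cisplatin against vehicle, the mitochondrial count of 1 became 0 with no filter on low counts and with a test against the fold limit. It was also 0 with the code block as a term, in the high block of library codes and with only the 2 groups fitted. In that order these fits called 1469, 447, 1853, 2743 and 1269 of all genes, against 1762 in the main fit. The nuclear count of 0 became 13 in the high block of library codes (17.8%, where 15.9% of all genes were called). Without a fold limit it became 2 (16.5% of all genes). For cotreatment against vehicle, the mitochondrial count of 2 became 0 with the test against the fold limit and in the high block. The nuclear count of 1 became 0 in both of these fits and with the code block as a term. In that order these fits called 1658, 2209 and 3821 of all genes, against 3914 in the main fit. The nuclear count became 3 with limma voom (25.8% of all genes called) and 9 without a fold limit (35.4%). For cotreatment against cisplatin, the nuclear count of 0 became 1 with DESeq2 and 2 with limma voom (5.42% and 6.11% of all genes), and the balance became -0.1116 in the low block. For cotreatment against KW6002, the mitochondrial count of 1 became 0 with the test against the fold limit and in the high block. These fits called 1763 and 1654 of all genes, against 3884 in the main fit. The mitochondrial count became 3 in the low block (19.4% of all genes) and 2 with limma voom (26.9%). The nuclear count of 0 became 1 in the low block and 8 without a fold limit (35.0%).

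Leaving out each tumor in turn gave ranges of 0 to 2 mitochondrial and 0 to 1 nuclear calls for cisplatin against vehicle, 2 to 3 and 0 to 4 for cotreatment against vehicle, 0 and 0 to 3 for cotreatment against cisplatin, and 1 to 3 and 0 to 1 for cotreatment against KW6002. The same fits called 1379 to 2067, 3327 to 4063, 289 to 1013 and 3289 to 4058 of all genes. The count of 4 nuclear calls came without cotreatment replicate 4, when Atp5d, Atp5e and Ndufs6 joined Ndufb2 and 4063 of all genes were called. The balance ranged from -0.0867 to 0.127 for KW6002, 0.0193 to 0.26 for cisplatin and 0.316 to 0.5193 for cotreatment against vehicle, 0.1576 to 0.3982 for cotreatment against cisplatin and 0.2989 to 0.5042 against KW6002. The mitochondrial minus nuclear level, cotreatment vs vehicle, was 0.4017 without mt-Nd6 and 0.4273 with only nuclear transcripts of 1000 bases or more, alternatives chosen after seeing the data.

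Replicate numbers did not pair the tumors: deviations of tumors with the same number had a median correlation of -0.0258 over 30 pairs (range -0.392 to 0.391), against 0.00704 over 120 other pairs. With the replicate block, mitochondrial calls were 0, 1, 2, 0 and 1 and nuclear calls 0, 0, 1, 0 and 0 for KW6002, cisplatin and cotreatment against vehicle, then cotreatment against cisplatin and KW6002, as without it. In the same order, 0, 1610, 3769, 584 and 3768 of all genes were called with the block. At these depths the mitochondrial members other than mt-Nd6 held at least 23127 counts in every tumor, and mt-Nd6 between 101 and 564.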
